A study of Homo sapiens with 36 samples.

Results

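The MYC, MAX and MXD network is a set of transcription factors that pair with each other and compete for the same DNA letters. Members were taken by a list of 10 gene symbols: MYC, MYCN and MYCL (activators), MAX (the common partner), MXD1, MXD3, MXD4 and MXI1 (the MXD antagonists), MNT (a further antagonist) and MLX (a partner related to MAX). Of these 10, 9 were analysed, among the 29872 genes of the table, and MYCN was not analysed here. All 9 were above 10 normalised counts in each of the 36 libraries, so each passed the filter on low values through every group.

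RNA was sequenced from LNCaP, a long-established line of human prostate cancer cells that depends on the androgen receptor. The 6 treatments were vehicle, the CDK4 inhibitors AU2-94 and Atirmociclib at 1 and 2 µM each, and Ribociclib, an inhibitor of CDK4 and CDK6, at 2 µM. Each was harvested at 24 h and at 72 h in 3 biological replicates, which gave 12 groups. The labels also carry 2 µM for the vehicle groups, which received no inhibitor. No genotype differed between groups, all libraries are of 1 cell line, and the wells harvested at 72 h had been seeded at a lower density, so time and density cannot be told apart. Because these are bulk samples, fewer cells of a type and less RNA per cell cannot be told apart either.

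MYC proteins bind DNA as a heterodimer with MAX, mostly at the E-box CACGTG, and recruit acetyltransferase complexes that raise transcription of genes for growth, ribosome production and nucleotide synthesis. MXD proteins and MNT also pair with MAX at E-boxes, but bring the SIN3 corepressor and histone deacetylases, and MXD proteins are best known from cells that leave the cell cycle. MXD3 is the member of its family usually described in dividing cells, and MLX pairs with the glucose-sensing factors MondoA and ChREBP as well as with some MXD proteins. CDK4 and CDK6 phosphorylate the retinoblastoma protein, which releases E2F factors and lets cells enter S phase.

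The library totals of normalised counts ranged from 20675156 to 22692555. All 7 LNCaP markers were well above the floor, from 2239 normalised counts upwards, and PTPRC, COL1A2, PECAM1, TP63 and KRT5, which mark other cell types, had a median of 0 and at most 7.09. COL1A1, a fibroblast collagen, was the exception at 194 to 644 normalised counts. It fell in 3 of 5 treatments at 24 h (-0.74 to -0.24 on the log2 scale over all 5) and in 0 at 72 h (-0.07 to 0.12), and DES was not analysed here. Of the LNCaP markers, 7 of 7 rose in each treatment at 24 h and 6 or 7 at 72 h (limma, adjusted p of at most 0.05), with TMPRSS2 at 0.92 to 1.34 and then 1.54 to 2.12. The part of these movements in the network's values was not tested. Replicate 3 of Atirmociclib 2 µM at 24 h stood apart from its group. It held 44.7 normalised counts of PLOD2, a collagen-modifying enzyme, against 570.1 and 427 in replicates 1 and 2, and 2412 of NDRG1 against 6403 and 4975. Vehicle libraries at 24 h held 2.085 to 24.12 of PLOD2 and 1271 to 1651 of NDRG1. Both genes were chosen after their values were seen, and results that rest on this library are given with and without it.

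To show where the network's own genes carry its binding letters, the 250 bases upstream of each RefSeq gene start (GRCh38.p14) were searched on both strands. The E-box CACGTG, which reads the same on both strands, was present in 6.34% of 35116 such windows. MYC had no such window and was not searched. Of the 8 analysed members with a window, MXD4, MNT and MLX carried it, at 238, 193 and 50 bases before the start. These 30-base stretches show those sites 5′ to 3′ on the strand of the gene, with the E-box in capitals. They lie at chr4:2262330-2262359 (minus strand), chr17:2401236-2401265 (minus strand) and chr17:42567038-42567067 (plus strand) and hold no annotated exon base.
MXD4: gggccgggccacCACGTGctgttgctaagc
MNT: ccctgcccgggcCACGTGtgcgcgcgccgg
MLX: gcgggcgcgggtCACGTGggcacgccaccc

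The upstream windows of MXD4 and MXD3 are shown whole because these are the members whose RNA moved most steadily upwards and most strongly downwards. The MXD4 window is chr4:2262110-2262359 (minus strand), 70.4% G and C, and the MXD3 window is chr5:177312758-177313002 (minus strand), 61.2% G and C, with 5 bases of annotated exon trimmed off.
MXD4: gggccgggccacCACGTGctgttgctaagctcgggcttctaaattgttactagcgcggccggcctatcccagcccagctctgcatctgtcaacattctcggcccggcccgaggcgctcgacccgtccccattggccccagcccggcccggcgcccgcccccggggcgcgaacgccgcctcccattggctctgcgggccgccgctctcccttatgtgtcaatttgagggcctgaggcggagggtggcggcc
MXD3: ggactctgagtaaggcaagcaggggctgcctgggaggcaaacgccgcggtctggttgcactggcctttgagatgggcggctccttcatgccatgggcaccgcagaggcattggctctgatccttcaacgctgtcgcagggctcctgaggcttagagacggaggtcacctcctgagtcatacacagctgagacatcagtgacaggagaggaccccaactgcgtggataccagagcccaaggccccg
The E2F words TTTCCCGC, TTTCGCGC, TTTGCCGC and TTTGGCGC were searched in the same way. At least 1 of them stood in 2.79% of all windows and in 0 of the 11 windows of the analysed members, which include no window of MYC. A match is a description of the letters, and its absence says only that these letters are not in this stretch.

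MYC was by far the most abundant member per kilobase of exon, where the length is the union of all annotated exons of a gene. In vehicle at 24 h it stood at 1338 ± 52.0 normalised counts per kb (SD, n = 3), followed by MLX at 459 ± 4.72 and MXD4 at 314 ± 8.13. MAX followed at 204 ± 23.4, MNT at 161 ± 17.96, MXI1 at 137 ± 4.37, MXD3 at 74.5 ± 16.4, MXD1 at 45.0 ± 4.12 and MYCL at 38.2 ± 5.33. The libraries of MNT, at 140.6 to 175 per kb, lay below those of MAX, at 182 to 229, but their range met that of MXI1, at 132 to 140.7, and the ranges of MXD1 and MYCL overlapped. At 72 h the order was the same except that MYCL, at 43.7 ± 1.81, stood just above MXD1, at 38.6 ± 2.24. Among all genes of the table, 99.1% had a lower mean normalised count than MYC and 95.7% a lower one than MXD4.

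**Figure D1:**
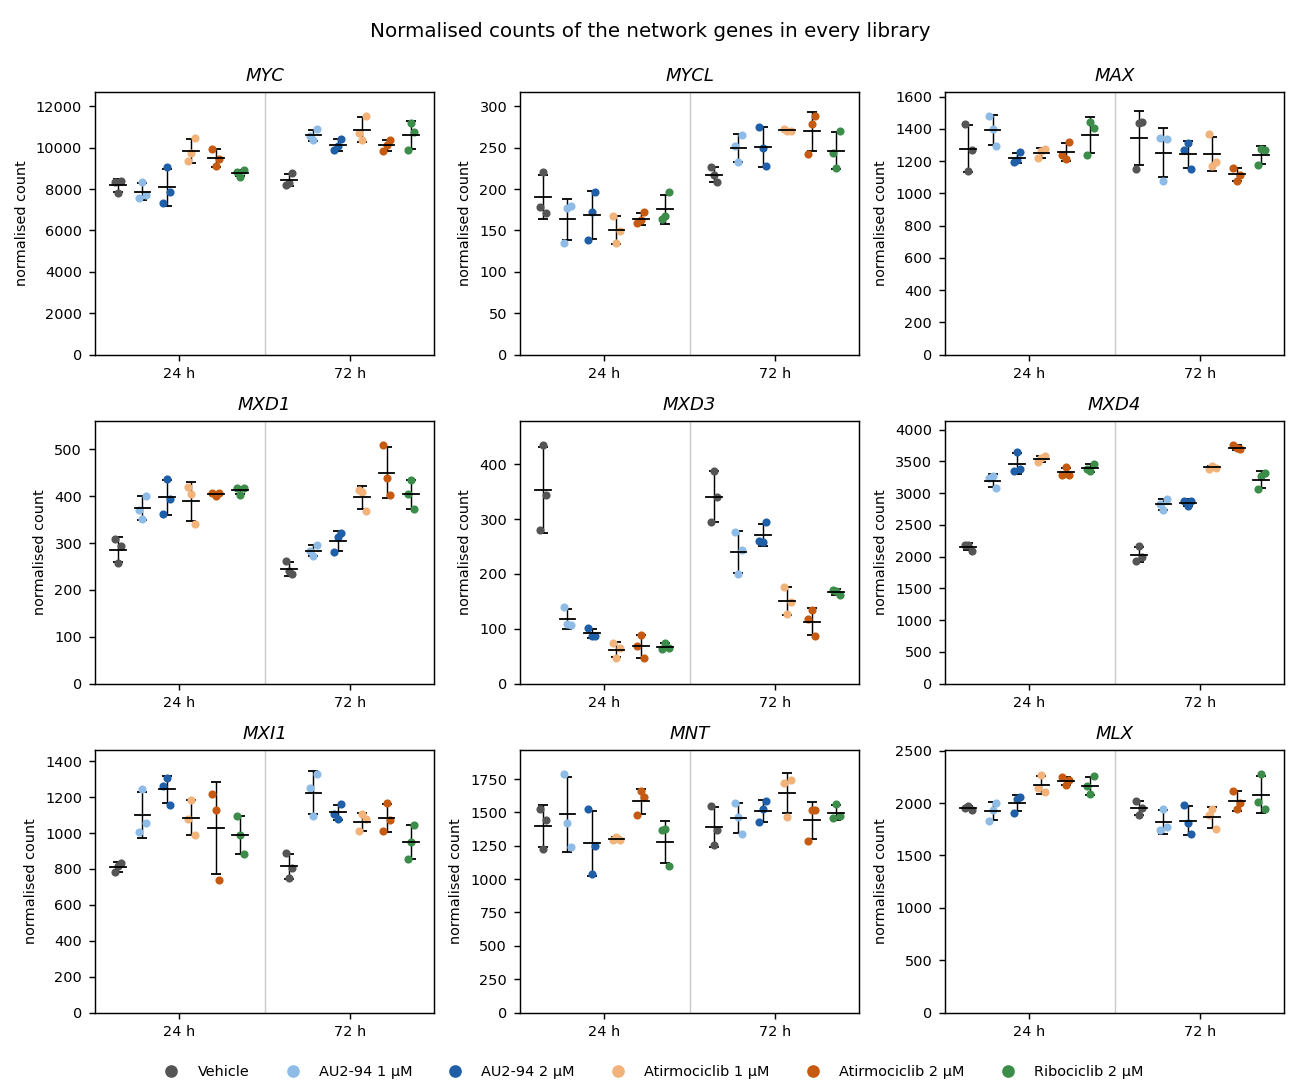
Normalised counts of the 9 members in all 36 libraries, 1 panel per gene; points are libraries, lines are group means and bars are the SD of 3 replicates, with 24 h and 72 h groups side by side. MXD4 stands at 1932 to 2188 in the 6 vehicle libraries and at 2734 to 3759 in the 30 treated ones, and MXD3 runs the other way.

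Treatment was compared with vehicle of the same time point on log2(normalised count + 1) with limma over all genes tested, and a gene was called at a Benjamini-Hochberg adjusted p of at most 0.05. Of 90 gene-by-treatment values of the network, 49 were called, and the treatments of a time point share their vehicle group. Over all genes, from 4485 of 16137 (AU2-94 1 µM, 24 h) to 6623 of 16341 (Atirmociclib 2 µM, 72 h) were called per treatment. At 24 h, AU2-94 at 1 µM raised 3 members and lowered 1, where 14.3% of all 16137 genes were higher and 13.5% lower. At 2 µM AU2-94 again raised 3 and lowered 1 (background 16% and 14.9%). Atirmociclib raised 5 and lowered 1 at 1 µM (16.6% and 15.4%), and raised 4 and lowered 1 at 2 µM (18.6% and 16.2%). Ribociclib raised 3 and lowered 1 (16.8% and 15.2%). The gene lowered in all 5 treatments was MXD3, and the genes raised in all 5 were MXD1 and MXD4.

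At 72 h, AU2-94 at 1 µM raised 3 members and lowered 1 (background 15.4% higher and 17% lower of 16341 genes), and at 2 µM it raised 4 and lowered 0 (14.2% and 15.3%). Atirmociclib raised 6 and lowered 1 at 1 µM (20% and 19.8%) and raised 5 and lowered 2 at 2 µM (20.9% and 19.6%). Ribociclib raised 3 and lowered 1 (15.5% and 15.4%). MYC and MXD4 were raised in all 5 treatments at this time.

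**Figure D2:**
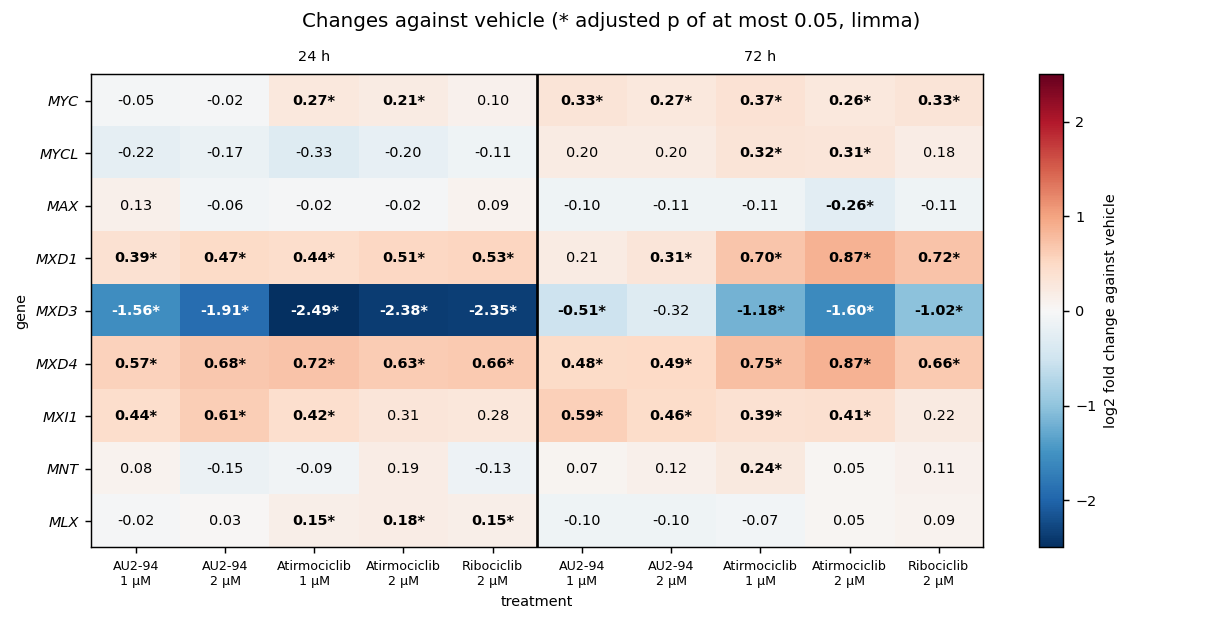
Log2 fold changes of the 9 members (rows) against vehicle of the same time point in the 10 treatments (columns), with an asterisk where the limma adjusted p was at most 0.05. MXD4 carries an asterisk in all 10 columns at 0.48 to 0.87, and MXD3 ranges from -2.49 to -0.32.

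MYC (ENSG00000136997, GRCh38 chromosome 8, 127735434 to 127742951, plus strand) encodes the central activator of the network. No inhibitor lowered its RNA by the test, and some raised it. Vehicle replicates 1, 2 and 3 at 24 h held 8352, 7810 and 8367 normalised counts. AU2-94 libraries held 7571, 8334 and 7724 at 1 µM and 7313, 9059 and 7845 at 2 µM, which spanned the vehicle range. Atirmociclib libraries held 9335, 9731 and 10485 at 1 µM and 9938, 9087 and 9433 at 2 µM, and all 6 were above every vehicle library. Ribociclib libraries, at 8820, 8588 and 8902, were also above vehicle by a narrow margin. The log2 fold change was 0.27 (SE 0.06, limma adjusted p = 0.0034) with Atirmociclib 1 µM and 0.21 (SE 0.06, adjusted p = 0.0142) with 2 µM, a level 1.2 and 1.16 times that of vehicle. It was -0.05 and -0.02 with AU2-94 and 0.10 with Ribociclib, none of which was called. The call for Atirmociclib 2 µM was lost without its own replicate 1 or without vehicle replicate 2, when the log2 fold change was 0.18 (adjusted p 0.0676 and 0.0663), and also under quantile normalisation (0.12, adjusted p = 0.14) and with equal totals per library (0.14, adjusted p = 0.11).

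At 72 h MYC RNA was higher in every treatment. Vehicle libraries held 8204, 8299 and 8758 normalised counts. With AU2-94 the values were 10536, 10346 and 10896 at 1 µM and 9873, 10087 and 10429 at 2 µM. Atirmociclib libraries held 10723, 10371 and 11520 at 1 µM and 9827, 10128 and 10348 at 2 µM, and Ribociclib libraries 9864, 11181 and 10731. No treated library overlapped the vehicle range. The log2 fold changes ran from 0.26 with Atirmociclib 2 µM to 0.37 with Atirmociclib 1 µM (SE 0.05 each, limma adjusted p 5.9e-06 to 0.000345), a rise of 1.2 to 1.29 times. These 5 calls were kept in each fit that left out 1 library.

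MYCL (ENSG00000116990, chromosome 1, 39895428 to 39902256, minus strand), a MYC paralogue, was expressed at a small fraction of the MYC level. Its 24 h libraries ran from 171 to 220.2 normalised counts in vehicle and from 134 to 197 under treatment, with log2 fold changes of -0.33 to -0.11 and no call. At 72 h vehicle held 226, 217 and 208 normalised counts. Atirmociclib libraries held 273, 270.5 and 269.6 at 1 µM and 242, 278 and 288 at 2 µM, all above vehicle. MYCL rose by a log2 fold change of 0.32 at 1 µM (SE 0.10, limma adjusted p = 0.0194) and 0.31 at 2 µM (SE 0.10, adjusted p = 0.0232). Values with AU2-94 (0.20 at both doses) and Ribociclib (0.18) were not called. The 1 µM call was lost without vehicle replicate 3 (0.29, adjusted p = 0.0659), and the 2 µM call without its replicate 2 or 3 or vehicle replicate 2 or 3 (0.26 to 0.31, adjusted p 0.0511 to 0.0928), with equal totals (0.23, adjusted p = 0.082) and with only the groups compared (adjusted p = 0.0591).

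MAX (ENSG00000125952, chromosome 14, 65006174 to 65102695, minus strand), the shared partner of MYC, MXD and MNT proteins, was called in 1 comparison. Its 36 libraries ran from 1077 to 1479 normalised counts. Of 10 values against vehicle, 9 were not called (-0.11 to 0.13 on the log2 scale). In the remaining group, Atirmociclib 2 µM at 72 h, replicates held 1160, 1077 and 1114 against 1151, 1437 and 1445 in vehicle. The ranges overlapped through vehicle replicate 1, and the log2 fold change was -0.26 (SE 0.10, limma adjusted p = 0.0384). This call was lost with the replicate number as a block (adjusted p = 0.0515) and without replicate 2 or 3 of either group (-0.26 to -0.20, adjusted p 0.0801 to 0.15), and with no filter or no trend (adjusted p 0.0613 and 0.0643).

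MXD4 (ENSG00000123933, chromosome 4, 2247432 to 2262109, minus strand), the most abundant of the MXD antagonists per kilobase, rose in all 10 comparisons. At 24 h vehicle libraries held 2188, 2187 and 2091 normalised counts. With AU2-94 they held 3240, 3267 and 3083 at 1 µM and 3348, 3653 and 3383 at 2 µM. Atirmociclib gave 3491, 3548 and 3590 at 1 µM and 3290, 3412 and 3288 at 2 µM, and Ribociclib 3384, 3345 and 3465. The lowest treated library was thus far above the highest vehicle library. Log2 fold changes ran from 0.57 (AU2-94 1 µM) to 0.72 (Atirmociclib 1 µM), each with an SE of 0.04 and limma adjusted p of 2.4e-10 to 1.47e-08.

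At 72 h the treatments spread further for MXD4. Vehicle held 1932, 2163 and 2002 normalised counts, and AU2-94 held 2837, 2734 and 2909 at 1 µM and 2877, 2791 and 2883 at 2 µM. Ribociclib held 3060, 3269 and 3311, and Atirmociclib 3387, 3430 and 3401 at 1 µM and 3759, 3705 and 3688 at 2 µM. Every inhibitor group lay clear of vehicle, and the Atirmociclib 2 µM libraries lay above all others. The level was 1.39 and 1.40 times that of vehicle with AU2-94 at 1 and 2 µM (log2 fold change 0.48 and 0.49, SE 0.05), 1.58 times with Ribociclib (0.66, SE 0.05), and 1.68 and 1.83 times with Atirmociclib at 1 and 2 µM (0.75 and 0.87, SE 0.05). The limma adjusted p ranged from 3.75e-11 to 4.16e-07, and all 10 calls were kept in each fit that left out 1 library.

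MXD1 (ENSG00000059728, chromosome 2, 69897688 to 69942945, plus strand), the founding MXD antagonist, also rose, at a lower level. At 24 h its vehicle libraries held 308, 257 and 293 normalised counts. AU2-94 gave 371, 352 and 401 at 1 µM and 363, 437 and 393 at 2 µM. Atirmociclib gave 421, 405 and 341 at 1 µM and 408, 401 and 407 at 2 µM, and Ribociclib 417, 403 and 417. None of these libraries overlapped vehicle, and the log2 fold changes were 0.39 to 0.53 (SE 0.10, limma adjusted p 0.000374 to 0.00572).

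The 72 h values of MXD1 separated by compound. Vehicle held 261, 239.7 and 234 normalised counts, and AU2-94 held 283, 272 and 295 at 1 µM and 281, 313 and 321 at 2 µM. Atirmociclib held 414, 409 and 369 at 1 µM and 509, 439 and 402 at 2 µM, and Ribociclib 406, 434 and 372. The highest AU2-94 library was below the lowest Atirmociclib or Ribociclib library. MXD1 rose by 0.70, 0.87 and 0.72 on the log2 scale with Atirmociclib 1 µM, Atirmociclib 2 µM and Ribociclib (SE 0.10, limma adjusted p 1e-06 to 1.9e-05). With AU2-94 the log2 fold change was 0.31 at 2 µM (SE 0.10, adjusted p = 0.0223) and 0.21 at 1 µM, which was not called (adjusted p = 0.114). The AU2-94 2 µM call was lost without its replicate 2 or 3 or vehicle replicate 2 or 3 (0.28 to 0.30, adjusted p 0.0642 to 0.0829), and with only the groups compared (adjusted p = 0.0506).

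MXI1 (ENSG00000119950, chromosome 10, 110207605 to 110287365, plus strand), an MXD antagonist also called MXD2, rose in 7 of 10 comparisons. Vehicle at 24 h held 781, 819 and 831 normalised counts. AU2-94 gave 1006, 1248 and 1054 at 1 µM and 1263, 1308 and 1157 at 2 µM, and Atirmociclib 1 µM gave 1081, 1185 and 989. Ribociclib gave 1097, 989 and 881. All of these were above vehicle, whereas Atirmociclib 2 µM held 1220 and 1126 in replicates 1 and 2 and 739 in replicate 3, the library that stood apart. The log2 fold change was 0.44 and 0.61 with AU2-94 at 1 and 2 µM (SE 0.14, limma adjusted p 0.0246 and 0.00234) and 0.42 with Atirmociclib 1 µM (SE 0.14, adjusted p = 0.0278). It was 0.31 with Atirmociclib 2 µM (adjusted p = 0.0927), and 0.53 (adjusted p = 0.000784) without replicate 3. The Ribociclib value of 0.28 was not called. Calls for AU2-94 1 µM were lost without its replicate 2 or vehicle replicate 1 or 2 (0.35 to 0.45, adjusted p 0.0535 to 0.111), and those for Atirmociclib 1 µM without its replicate 1 or 2 or any vehicle library (0.35 to 0.44, adjusted p 0.0516 to 0.108). Both were also lost without the trend (adjusted p 0.0512 and 0.056), the latter with equal totals too (0.36, adjusted p = 0.0548), while Atirmociclib 2 µM passed under quantile normalisation (0.36, adjusted p = 0.0489) and Ribociclib with only the groups compared (0.28, adjusted p = 0.0301).

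At 72 h MXI1 held 888, 749 and 806 normalised counts in vehicle. AU2-94 gave 1253, 1095 and 1330 at 1 µM and 1107, 1078 and 1161 at 2 µM, and Atirmociclib gave 1009, 1106 and 1077 at 1 µM and 1014, 1169 and 1072 at 2 µM. None of these overlapped vehicle. Ribociclib, at 858, 950.3 and 1047, did. MXI1 rose by 0.59, 0.46, 0.39 and 0.41 in those 4 groups in turn (SE 0.09, limma adjusted p 4.6e-05 to 0.00162). The Ribociclib value was 0.22 (SE 0.09, adjusted p = 0.06), and it passed the threshold without Ribociclib replicate 1 or vehicle replicate 1 (0.30 and 0.29, adjusted p 0.0235 and 0.0304), with a filter on a mean of 100 (adjusted p = 0.0492) and under quantile normalisation (0.26, adjusted p = 0.0362).

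MXD3 (ENSG00000213347, chromosome 5, 177301461 to 177312757, minus strand), the MXD protein usually found in dividing cells, went the opposite way. At 24 h vehicle held 280.4, 435 and 344 normalised counts. AU2-94 libraries held 139, 109.6 and 107 at 1 µM and 102, 87.4 and 87.4 at 2 µM. Atirmociclib libraries held 74.3, 47.1 and 64.5 at 1 µM and 69.2, 88.8 and 46.4 at 2 µM, and Ribociclib libraries 62.7, 74.3 and 65.3. The highest treated library held less than the lowest vehicle library. MXD3 fell, with log2 fold changes of -1.56 and -1.91 with AU2-94 at 1 and 2 µM, -2.49 and -2.38 with Atirmociclib and -2.35 with Ribociclib (SE 0.22, limma adjusted p 7.61e-08 to 3.95e-05). Its level was 0.34 times that of vehicle in the mildest case and 0.18 times in the strongest, and the call in each treatment was kept in each fit that left out 1 library.

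By 72 h MXD3 was nearer to vehicle. Vehicle libraries held 294.5, 388 and 341 normalised counts. AU2-94 libraries held 276, 201 and 243 at 1 µM and 259.8, 258.9 and 294.2 at 2 µM, where the highest was just below the lowest vehicle library. Atirmociclib libraries held 176, 127 and 149 at 1 µM and 118, 135 and 86.8 at 2 µM, and Ribociclib libraries 170.5, 169 and 161. MXD3 fell, with log2 fold changes of -1.18 and -1.60 with Atirmociclib at 1 and 2 µM and -1.02 with Ribociclib (SE 0.16, limma adjusted p 2.45e-07 to 9.31e-05). It fell by 0.51 with AU2-94 1 µM (adjusted p = 0.0223), a call that was lost without its replicate 2 or vehicle replicate 2 or 3 (-0.50 to -0.39, adjusted p 0.0533 to 0.116). The AU2-94 2 µM value of -0.32 was not called (adjusted p = 0.148).

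Genes of proliferation moved with MXD3. All 10 of the 10 listed (such as RRM2, a subunit of ribonucleotide reductase, and CCNA2, cyclin A2) fell in every treatment, with a median of -2.77 to -1.45 across the 24 h treatments and -1.79 to -0.62 across those of 72 h. Their summed level was 33965 to 34634 normalised counts in vehicle and 5635 to 13868 under treatment at 24 h, and 35016 to 36135 against 12200 to 23589 at 72 h. Their part in the MXD3 values was not tested. The exons of MXD3 overlap those of PRELID1 on the opposite strand over 1148 bases (24.2%) and those of RAB24 on the same strand over 926 bases (19.5%), where reads may be assigned to either gene. PRELID1 stood at -0.09 to 0.20 on the log2 scale at 24 h and RAB24 at -0.02 to 0.44, and neither fell in any treatment at that time. At 72 h PRELID1 fell in all 5 treatments (-0.46 to -0.15) and RAB24 rose in 4 (0.23 to 0.71 over all 5).

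MNT (ENSG00000070444, chromosome 17, 2384073 to 2401104, minus strand), an antagonist present in dividing and resting cells alike, was close to vehicle. Its 24 h libraries held 1223 to 1524 normalised counts in vehicle and 1038 to 1789 under treatment, with log2 fold changes of -0.15 to 0.19 (95% intervals within -0.43 to 0.47) and no call. At 72 h it was called once, with Atirmociclib 1 µM, whose libraries held 1720, 1469 and 1742 against 1551, 1256 and 1370 in vehicle. The ranges overlapped, and the log2 fold change was 0.24 (SE 0.09, limma adjusted p = 0.0382). This call was lost with the replicate number as a block (adjusted p = 0.0505) and without replicate 1 or 3 of Atirmociclib 1 µM or replicate 2 or 3 of vehicle (0.17 to 0.23, adjusted p 0.0887 to 0.184), with equal totals (0.20, adjusted p = 0.0771), and with no filter, no trend or only the groups compared (adjusted p 0.0608 to 0.0655).

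MLX (ENSG00000108788, chromosome 17, 42567072 to 42573239, plus strand) was slightly higher at 24 h. Vehicle held 1954, 1969 and 1930 normalised counts. Atirmociclib held 2146, 2266 and 2106 at 1 µM and 2252, 2174 and 2216 at 2 µM, and Ribociclib 2159, 2083 and 2253, all above vehicle. AU2-94 libraries, at 1833 to 2053 over both doses, spanned the vehicle range. MLX rose by 0.15, 0.18 and 0.15 on the log2 scale in the 3 groups above vehicle (SE 0.05, limma adjusted p 0.0214, 0.00727 and 0.0255). The Atirmociclib 1 µM call was lost without its replicate 2 or vehicle replicate 1 or 3 (0.12 to 0.16, adjusted p 0.05 to 0.102, the lowest just over the threshold before rounding), and the Ribociclib call without its replicate 1 or 3 or vehicle replicate 1 or 3 (0.12 to 0.15, adjusted p 0.0568 to 0.117). With equal totals per library all 3 calls were lost, at 0.10, 0.11 and 0.09 in the same order (adjusted p 0.135, 0.0925 and 0.16). No 72 h value was called (-0.10 to 0.09). PSMC3IP, which overlaps 18.2% of the MLX exons on the opposite strand, fell in all 10 comparisons (-1.81 to -0.56).

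Summed per kilobase, the 4 MXD antagonists stood at 570.3 ± 16.4 normalised counts per kb in vehicle and 736 to 796 under treatment at 24 h, and at 544 ± 14.7 and 709 to 819 at 72 h, as group means that were not tested. MXD4 made up most of each sum. Its share was 55.0% of the MXD sum in vehicle and 63.2% to 66.8% under treatment at 24 h. At 72 h the share was 54.3% in vehicle, 57.7% and 58.5% with AU2-94 at 1 and 2 µM, and 64.3% to 66.0% with Atirmociclib and Ribociclib.

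**Figure D3:**
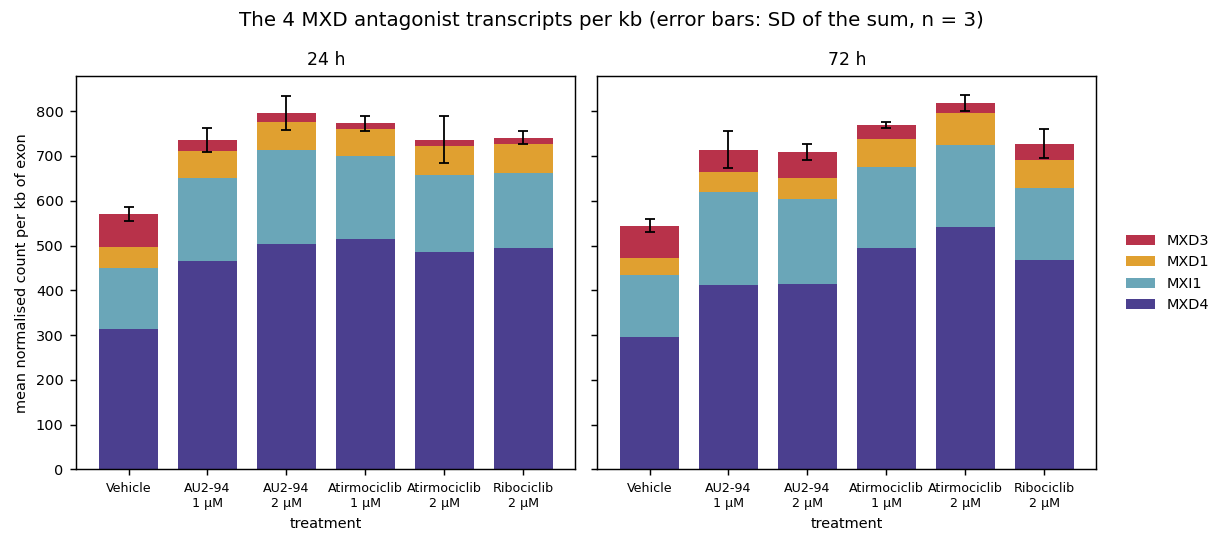
Stacked bars of the mean normalised counts per kb of exon of MXD4, MXI1, MXD1 and MXD3 in the 12 groups; error bars are the SD of the sum over 3 libraries. The sum stands at 570.3 in vehicle at 24 h and 544 at 72 h, and every treated bar is taller.

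Set against MYC in the same library, the MXD sum per 100 MYC (both per kb) was 40.8, 46.1 and 41.2 in the vehicle replicates at 24 h. It was 58.9, 56.1 and 56.4 with AU2-94 1 µM and 65.1, 56.7 and 59.8 with 2 µM, all above vehicle. Atirmociclib 1 µM gave 50.6, 49.6 and 44.1, which overlapped the vehicle range. Atirmociclib 2 µM gave 47.0, 51.7 and 43.9, and overlapped vehicle only through replicate 3, the library that stood apart. Without it, both remaining values were above vehicle. Ribociclib gave 52.4, 52.2 and 50.3, all above vehicle. At 72 h vehicle gave 39.8, 41.3 and 37.4. Atirmociclib 2 µM gave 51.2, 50.3 and 47.2 and was furthest from vehicle, while the other 4 groups lay between 39.5 and 45.8. Of these, AU2-94 2 µM, at 43.6, 41.9 and 42.7, lay just above every vehicle library, and the rest overlapped vehicle. With MNT added to the sum, the 24 h means were 54.7 ± 2.09 (SD, n = 3) in vehicle and 57.4 (Atirmociclib 1 µM) to 71.8 (AU2-94 2 µM) under treatment. At 72 h they were 51.1 ± 2.44 in vehicle, 59.6 with Atirmociclib 2 µM and 50.85 to 53.97 in the other 4 groups. These ratios describe RNA levels and were given no test.

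Effects at the 2 time points were compared as the effect against vehicle at 72 h minus that at 24 h, in 1 limma fit of all 36 libraries. Of 45 such values for the network, 12 were called. AU2-94 had 2 at 1 µM, where 21.6% of 16850 genes were called, and 3 at 2 µM (18.5%). Atirmociclib had 2 at 1 µM (21.9%) and 3 at 2 µM (21.6%), and Ribociclib had 2 (20.2%). MXD3 was called in all 5, in each case because its fall was smaller at 72 h, by 0.79 to 1.58 on the log2 scale. MYC gained 0.39 and 0.29 between the time points with AU2-94 at 1 and 2 µM and 0.23 with Ribociclib, but its change of 0.10 and 0.05 with Atirmociclib was not called. In vehicle alone, 0 of 9 members were called between 72 h and 24 h (background 7.5%), 2 had an unadjusted p of at most 0.05, and the log2 differences lay between -0.22 and 0.20.

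**Figure D4:**
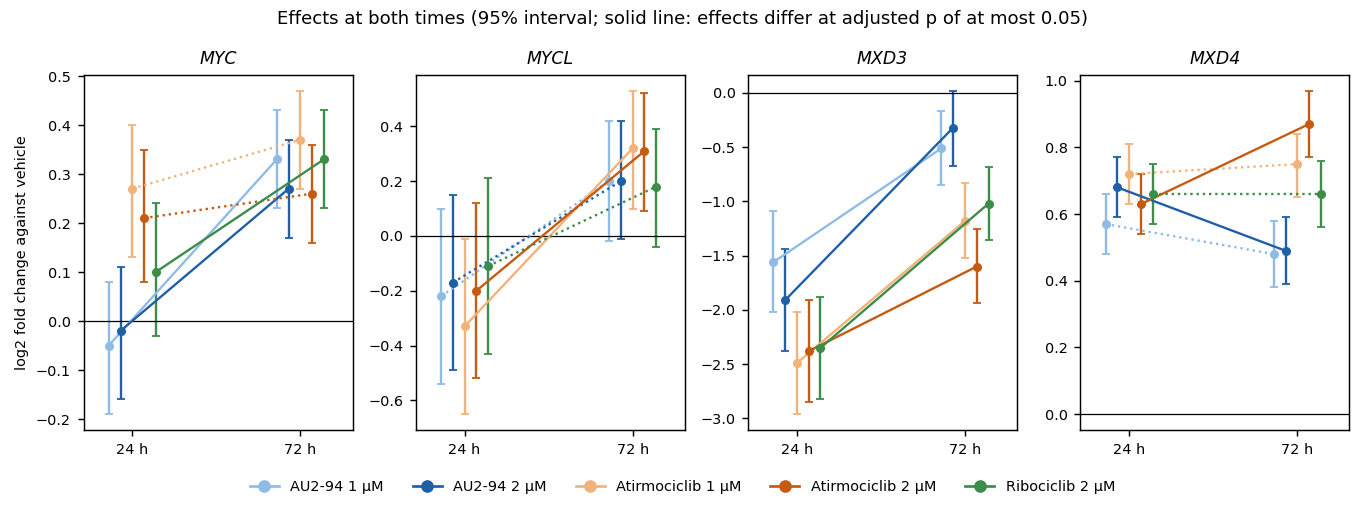
Log2 fold change against vehicle of MYC, MYCL, MXD3 and MXD4 at 24 h and 72 h, 1 line per treatment, with bars for the 95% interval; solid lines mark treatments whose effect differed between the times (limma adjusted p of at most 0.05). MXD3 lines all climb towards 0, by 0.79 to 1.58, and the MYC lines of AU2-94 climb from -0.05 and -0.02 to 0.33 and 0.27.

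Compounds were compared at matched dose and time in 8 pairs. At 24 h, Atirmociclib differed from AU2-94 at 1 µM in 3 members (background 4.64%). MYC was higher by 0.32 (SE 0.06, limma adjusted p = 0.00497), MLX was higher by 0.18 (SE 0.05, adjusted p = 0.0477) and MXD3 was lower, at -0.94 (SE 0.22, adjusted p = 0.0187). The MXD3 call was lost without AU2-94 replicate 1 or Atirmociclib replicate 2 (-0.82 and -0.76, adjusted p 0.0956 and 0.0963). The MLX call was lost when the replicate number was a block (adjusted p = 0.0652), and likewise without any 1 of the 6 libraries (0.14 to 0.20, adjusted p 0.0507 to 0.199). It was also lost without a filter or a trend, under quantile normalisation, with equal totals and with only the groups compared (0.16 to 0.18, adjusted p 0.0583 to 0.16). At 2 µM only MYC passed (background 9.44%), higher with Atirmociclib by 0.24 (SE 0.06, adjusted p = 0.0248), and this was lost without replicate 1 or 3 of either group (0.17 to 0.24, adjusted p 0.0602 to 0.133). At 2 µM MXD4 differed by -0.05 (95% interval -0.14 to 0.03) and MXD1 by 0.03 (-0.17 to 0.24). At 1 µM MXD4 was not called, at 0.15 (0.06 to 0.24, limma adjusted p = 0.0557), although the libraries did not overlap. It passed there with a filter on a mean of 100 (adjusted p = 0.0361).

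Ribociclib and AU2-94 at 2 µM differed at 24 h in 0 of 9 members (background 0.0372%), with 2 at an unadjusted p of at most 0.05, and so did Atirmociclib and Ribociclib (4.64%), with 1. For MXD3, the Atirmociclib to Ribociclib difference was -0.03 with a 95% interval of -0.50 to 0.44, so a difference of that size either way could not be told from none.

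At 72 h the compounds separated on MXD1, MXD3 and MXD4. MXI1 was called in 0 of the 8 pairs over both times (-0.33 to 0.19 on the log2 scale, lowest limma adjusted p 0.168). Atirmociclib 1 µM differed from AU2-94 1 µM in 3 members (background 8.24%), with MXD1 higher by 0.49 (SE 0.10, limma adjusted p = 0.00394), MXD4 higher by 0.27 (SE 0.05, adjusted p = 0.000972) and MXD3 at -0.67 (SE 0.16, adjusted p = 0.0142). The MXD3 call was lost without AU2-94 replicate 1 or 3 or Atirmociclib replicate 2 (-0.65 to -0.55, adjusted p 0.0506 to 0.0817). At 2 µM the same 3 genes were called (background 19.8%), with MXD1 at 0.56 (SE 0.10, adjusted p = 0.000499), MXD4 at 0.38 (SE 0.05, adjusted p = 9.35e-06) and MXD3 at -1.27 (SE 0.16, adjusted p = 1.55e-05). These were kept in each fit that left out 1 library. MYC did not separate the compounds at this time, with a difference of 0.04 (95% interval -0.06 to 0.14) at 1 µM and 0.00 (-0.10 to 0.10) at 2 µM.

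Ribociclib differed from AU2-94 at 2 µM in 2 members at 72 h (background 3.34%), MXD1 at 0.40 (SE 0.10, limma adjusted p = 0.0309) and MXD3 at -0.70 (SE 0.16, adjusted p = 0.024). Leaving out any AU2-94 library, or Ribociclib replicate 1 or 2, ended the MXD1 call (0.34 to 0.44, adjusted p 0.0641 to 0.141). The MXD3 call ended without any AU2-94 library or Ribociclib replicate 2 or 3 (-0.73 to -0.63, adjusted p 0.051 to 0.103). MXD4 stood at 0.17 (adjusted p = 0.0514), and at 0.21 (adjusted p = 0.0333) without Ribociclib replicate 1. Atirmociclib differed from Ribociclib at 2 µM in 2 members (background 9.18%), MXD4 at 0.21 (SE 0.05, adjusted p = 0.00673) and MXD3 at -0.58 (SE 0.16, adjusted p = 0.0311). The MXD3 call ended without Atirmociclib replicate 1 or 3 or any Ribociclib library (-0.62 to -0.40, adjusted p 0.0549 to 0.153).

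**Figure D5:**
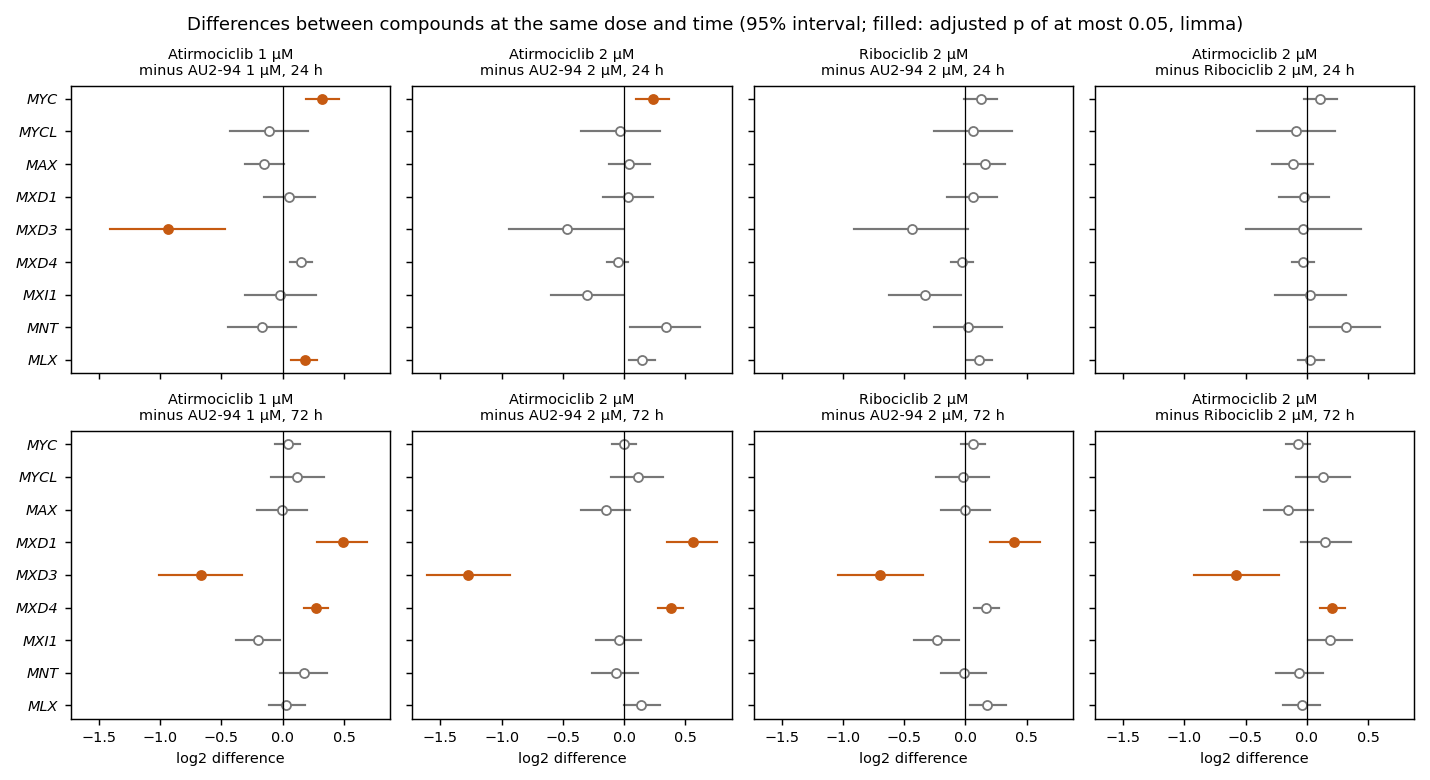
Log2 differences of the 9 members between compounds at matched dose and time, 1 panel per pair, with bars for the 95% interval and filled points where the limma adjusted p was at most 0.05. The widest difference is MXD3 in Atirmociclib against AU2-94 at 2 µM and 72 h, at -1.27, and 14 of 72 values are filled.

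Doses were compared within AU2-94 and within Atirmociclib. No member differed between 2 and 1 µM by the adjusted p: 0 of 9 with AU2-94 at 24 h (background 0.409%), with Atirmociclib at 24 h (0.0124%), with AU2-94 at 72 h (0%) and with Atirmociclib at 72 h (2.19%). In the same order, 2, 0, 0 and 4 members had an unadjusted p of at most 0.05. The log2 differences over all 36 values ran from -0.42, for MXD3 with Atirmociclib at 72 h, to 0.28, and their 95% intervals reached from -0.82 to 0.58.

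More of the genes that MYC is known to activate fell than rose at 72 h, when MYC RNA was higher. Of 22 listed, 21 were tested (CCND2, cyclin D2, was too low). At 24 h 3 to 7 of these rose and 5 to 9 fell per treatment, with medians of -0.11 to 0.02 on the log2 scale. Over all genes, 14.3% to 18.6% rose and 13.5% to 16.2% fell per treatment at this time. At 72 h, 1 to 4 rose and 13 to 16 fell, beside 14.2% to 20.9% and 15.3% to 19.8% of all genes, with medians of -0.40 to -0.29, where the median of all genes tested lay within -0.009 to 0.024. CDC25A, a phosphatase that drives S phase entry and is also an E2F target, fell in all 10 comparisons (-2.23 to -1.10 at 24 h and -1.59 to -0.97 at 72 h). LDHA, lactate dehydrogenase A, rose in all 10 (0.42 to 0.74 and 0.36 to 0.73), although the library that stood apart held 12653 normalised counts of it against 23606 and 20334 in its group. Without that library, LDHA rose by 0.68 (limma adjusted p = 2.89e-06) in place of 0.42 with Atirmociclib 2 µM at 24 h, and 6 in place of 7 genes of the list rose. The LDHA call with Atirmociclib 2 µM at 24 h was lost without replicate 1 or 2 of its group or vehicle replicate 1 or 3 (0.23 to 0.40, adjusted p 0.0768 to 0.191), and that with Ribociclib at 24 h without Ribociclib replicate 3 or vehicle replicate 1 or 3 (0.39 to 0.43, adjusted p 0.0594 to 0.0815). The 10 proliferation genes fell in the same treatments, and their part in these counts was not tested.

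Of 6 genes that MYC is known to repress, 1 or 2 rose and 0 to 2 fell per treatment, numbers near the share of all genes called in each direction (13.5% to 20.9% over both times). NDRG1, a differentiation and stress gene, rose in all 10 comparisons, by 1.58 to 2.28 on the log2 scale at 24 h and 2.13 to 2.38 at 72 h. The lowest of these, 1.58 with Atirmociclib 2 µM, was 1.99 without the library that stood apart. NDRG1, LDHA, MXI1 and PLOD2 were all lower in that library than in the other replicates of its group. The part of MYC in the NDRG1 and LDHA values was not tested. CDKN1A, the CDK inhibitor p21, fell in 9 of 10 (-0.76 to -0.18 and -0.94 to -0.36 over all comparisons). At 24 h its calls with AU2-94 2 µM and Atirmociclib 1 µM (-0.27 each) were lost without any vehicle library or without replicate 2 or 3 of the treated group (limma adjusted p 0.0501 to 0.194). Both MondoA and MLX targets on the list, TXNIP, which restrains glucose uptake, and ARRDC4, a related arrestin, rose in all 5 treatments at 72 h, TXNIP by 0.81 to 1.51 and ARRDC4 by 0.57 to 1.12. At 24 h ARRDC4 rose in 5 (0.37 to 0.55) and TXNIP in 2 (0.04 to 0.34 over all 5).

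Some genes for cofactors of the network also moved. Of 9 MYC coactivator genes, 0 or 1 rose and 2 to 4 fell per treatment at 24 h, and 1 or 2 rose and 4 fell at 72 h, beside 13.5% to 16.2% of all genes that fell at 24 h and 15.3% to 19.8% at 72 h. WDR5, an adaptor of histone methylation that contacts MYC, fell in all 10 comparisons (-0.45 to -0.22 over both times), and KAT5, an acetyltransferase, fell in the 5 at 72 h (-0.55 to -0.24) and was not called at 24 h (-0.17 to 0.08). The WDR5 calls at 24 h were lost with Atirmociclib 1 µM without its replicate 2 or vehicle replicate 2 (-0.21 to -0.18, limma adjusted p 0.062 to 0.0892) and with Ribociclib without its replicate 1 or vehicle replicate 1 or 2 (-0.22 to -0.20, adjusted p 0.051 to 0.0746). The KAT5 call with Ribociclib was lost without its replicate 1 or 3 or vehicle replicate 1 (-0.24 to -0.18, adjusted p 0.061 to 0.131). Of 8 genes for MYC protein turnover, 0 rose and 3 or 4 fell per treatment (13.5% to 19.8% of all genes fell), among them AURKA, a mitotic kinase that binds MYCN (-2.22 to -1.66, then -1.48 to -0.70 at the later time), and CIP2A, which protects MYC from dephosphorylation (-1.64 to -0.81 and -0.72 to -0.33). The 72 h calls of CIP2A with AU2-94 at both doses and with Ribociclib (-0.34, -0.34 and -0.33) were lost without any 1 of the libraries compared, except without replicate 3 of AU2-94 1 µM or of Ribociclib (-0.37 to -0.27, limma adjusted p 0.0517 to 0.134). AURKA and CIP2A are also expressed with the cell cycle. These are RNA levels, and MYC protein was not measured in these files.

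Of the 5 SIN3 corepressor genes, through which MXD proteins act, 0 rose and 0 to 2 fell per treatment at 24 h, and 1 or 2 rose and 0 to 2 fell at 72 h, numbers near those shares of all genes. SIN3B rose in all 5 at 72 h (0.25 to 0.41), and SAP30 fell in 1 comparison at 24 h and 2 at 72 h (-1.19 to -0.08 over the 5 at 72 h). Its 24 h call, with Atirmociclib 2 µM, stood at -1.07 (limma adjusted p = 0.0109) and at -0.52 (adjusted p = 0.0372) without replicate 3, the library that stood apart. With Ribociclib at 72 h SAP30 was not called (-0.58), but passed without vehicle replicate 3 (-0.72, adjusted p = 0.0447). Of the 3 extended partners, MGA was not called in any comparison (0.03 to 0.20), except without replicate 3 of AU2-94 1 µM at 72 h (0.30, limma adjusted p = 0.00789), and MLXIPL, which encodes ChREBP, was called once at each time (-1.51 to -0.61 in the 24 h treatments, -0.72 to 0.24 in those of 72 h). Its call with Atirmociclib 2 µM at 72 h (-0.72) was lost without replicate 1 or 2 of that group or vehicle replicate 3 (-0.63 to -0.58, adjusted p 0.0601 to 0.0749), and AU2-94 2 µM at 24 h (-0.68) passed without its replicate 2 (-1.04, adjusted p = 0.0439).

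The genes whose group means followed those of MYC most closely over the 12 groups, among 16850, were CHRNA4 (Pearson r 0.954), PTCD3 (0.951) and ANKS1A (0.932). For MXD4 they were CCDC186 (0.988), PPP2R3A (0.98) and RAB5B (0.979). The groups share libraries' treatments and normalisation, so these are descriptions of likeness and carry no p-value.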

How the data were processed

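The authors sequenced LNCaP RNA in 36 libraries, ran nf-core/rnaseq, aligned to GRCh38 with STAR 2.6.1d and analysed expression with DESeq2, per the study's methods and the submitters' processing notes. The annotation release, the counting tool and its strand setting are not given in the sources used here. The authors deposited 1 table of normalised counts (signal values scaled between libraries, not whole reads) for 29872 genes. Whole reads could not be recovered from these values, so count models were not run and depth is known only through the totals, which limit low values most.

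Genes with at least 10 normalised counts in at least 3 libraries of a fit were analysed on log2(normalised count + 1) with limma 3.58.1 (R 4.3.3, eBayes with trend), so that fold changes of low genes are understated. Each fit held the 6 groups sharing a time point (16137 genes at 24 h, 16341 at 72 h), and all 12 for changes with time (16850 genes). Adjusted p-values follow Benjamini and Hochberg within each comparison, over all genes tested. In simulated data for 16137 genes (the 24 h fit, AU2-94 1 µM against vehicle), 93.5% of 200 genes planted at a log2 change of 1 were recovered, planted genes made up 94.9% of the calls, and an unchanged group gave 0. Genes of low level were not planted. Smaller changes, as in most member values, were not planted either, so their recovery is not known.

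Groups came from the sample labels, and the replicates are biological replicates of 1 cell line. The labels name the replicate number as a batch, but the reported fits held only a term per group and did not pair libraries by number. Over 45 pairs per time point, departures from the group mean correlated between libraries of the same number by 0.0018 on average at 24 h (-0.09 to 0.11) and -0.0022 at 72 h (-0.08 to 0.05). The fit with the number as a block was run as an alternative, beside other pseudocounts, filters, normalisations, fits and the omission of each library.

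Exon lengths, positions and overlaps came from GENCODE release 44, matched by gene identifier for 29856 of 29872 genes. Each length joins the exons of all annotated transcripts of the gene, whether used in these cells or not. Levels per kb, their order, the MXD4 share and the MXD to MYC ratios depend on these lengths. Copies were sought with BLAST 2.17.0 (at least 100 bases at 98% identity). Outside overlapping genes, 1 was found: PRELID1P5, over 150 bases of the MXD3 exons on the opposite strand. All members are named, and of each other list the 2 genes with the largest mean change over the 10 comparisons with vehicle, and the 3 genes most like MYC and most like the member other than MYC with the most calls. Members and lists were chosen with earlier results of these data known.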

Additional observations from a re-analysis of the deposited data

Results flagged for a closer look

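In 12 cases the effect of a treatment against vehicle differed between 24 h and 72 h by the test of the difference itself (limma, adjusted p of at most 0.05, effect at 72 h minus effect at 24 h on the log2 scale, 3 libraries a group). Per treatment these were 2 or 3 of 9 members, beside 18.5% to 21.9% of all 16850 genes.

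For MXD3 the difference was 1.05 with AU2-94 1 µM (adjusted p = 0.00711), 1.58 with AU2-94 2 µM (adjusted p = 0.000115), 1.32 with Atirmociclib 1 µM (adjusted p = 0.000815), 0.79 with Atirmociclib 2 µM (adjusted p = 0.0435) and 1.33 with Ribociclib (adjusted p = 0.000797). All 5 are differences between a larger and a smaller value below 0. The Atirmociclib 2 µM difference lost its call in 8 of the fits that left out 1 library (0.54 to 0.82, adjusted p 0.0561 to 0.17), those without replicate 1 or 3 of its 24 h group, replicate 2 or 3 of vehicle at 24 h, replicate 1 or 2 of its 72 h group, or replicate 1 or 3 of vehicle at 72 h. It was 0.54 (adjusted p = 0.17) without replicate 3 of Atirmociclib 2 µM at 24 h, the library that stood apart.

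For MYC the difference was 0.39 with AU2-94 1 µM (adjusted p = 0.000894), 0.29 with AU2-94 2 µM (adjusted p = 0.0119) and 0.23 with Ribociclib (adjusted p = 0.0483). Without replicate 1 of AU2-94 2 µM at 24 h, the AU2-94 2 µM difference was 0.22 (adjusted p = 0.0513). The Ribociclib difference was lost without any 1 of 9 libraries, namely each Ribociclib library at 24 h, vehicle replicate 1 or 3 at 24 h, Ribociclib replicate 2 or 3 at 72 h and vehicle replicate 1 or 2 at 72 h (0.19 to 0.24, adjusted p 0.0607 to 0.128).

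MYCL differed by 0.65 with Atirmociclib 1 µM (adjusted p = 0.00814) and by 0.51 with Atirmociclib 2 µM (adjusted p = 0.0411). The latter was lost without replicate 1 or 2 of Atirmociclib 2 µM at 24 h, replicate 2 of vehicle at 24 h, or replicate 2 or 3 of either group at 72 h (0.40 to 0.51, adjusted p 0.0657 to 0.135). MXD4 differed in opposite directions, by -0.19 with AU2-94 2 µM (adjusted p = 0.0199) and 0.24 with Atirmociclib 2 µM (adjusted p = 0.00288). The AU2-94 value was lost without replicate 2 of AU2-94 2 µM at either time, vehicle replicate 3 at 24 h or vehicle replicate 2 at 72 h (-0.18 to -0.15, adjusted p 0.0525 to 0.0881). It was also lost with equal totals per library (-0.13, adjusted p = 0.134) and with only the groups compared (-0.19, adjusted p = 0.102).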

How the results depend on the processing

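No member value called in the reported fit or under an alternative had opposite signs in them, whereas some uncalled values near 0 did change sign. With the replicate number as a block, 3 of 252 member values lost their call: MNT in Atirmociclib 1 µM at 72 h (log2 fold change 0.24), MAX in Atirmociclib 2 µM at 72 h (-0.26) and MLX in Atirmociclib against AU2-94 at 1 µM and 24 h (0.18), so that 6, 6 and 2 members were called in place of 7, 7 and 3, and no other call changed. Equal totals per library shifted the median of all genes by -0.105 to 0.088 on the log2 scale, against -0.009 to 0.024 as deposited. Under them Atirmociclib 2 µM against vehicle at 24 h called 3 members in place of 5, Atirmociclib against AU2-94 at 2 µM and 24 h 0 in place of 1, Ribociclib against AU2-94 at 72 h 1 in place of 2, and vehicle between times 1 (MXD4) in place of 0. Atirmociclib against AU2-94 at 2 µM and 24 h also gave 0 under quantile normalisation, without the trend and with only the groups compared, and 2 with a mean of at least 100. With only the groups compared, Ribociclib against AU2-94 at 72 h gave 1 and Atirmociclib against Ribociclib at 72 h 0 in place of 2, and the latter gave 1 without a filter or a trend. The change of the Atirmociclib 2 µM effect with time gave 1 in place of 3 without a filter and under quantile normalisation, and that of Ribociclib 1 in place of 2 without a filter or a trend. Leaving out each library in turn gave 1 to 2 members for Atirmociclib against AU2-94 at 1 µM and 24 h (3 with all), 0 to 1 at 2 µM, 0 to 2 for Ribociclib against AU2-94 at 72 h, 1 to 2 for Atirmociclib against Ribociclib at 72 h, and 1 to 4 and 1 to 2 for the changes with time of Atirmociclib 2 µM and Ribociclib. The cause of these shifts was not tested. Both pseudocounts and recomputed median-of-ratios factors changed at most 1 call each. Over all alternatives and omissions, 0 to 7 of the genes that MYC activates were higher and 5 to 12 lower at 24 h, 1 to 4 higher and 12 to 16 lower at 72 h, and 1 to 7 coactivator genes were lower at 24 h and 1 to 5 at 72 h.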
